A study of Danio rerio with 20 samples.

Results

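The transition from gastrula to tailbud was followed in whole zebrafish embryos by comparing 4 poly(A)-selected RNA libraries collected at 10 h post fertilization (hpf) with 4 collected at 8 hpf, which were 8 of the 20 libraries of a time course that ran to 16 hpf. Each stage held 2 MPNP and 2 PNP libraries. MPNP embryos were un-genotyped offspring of mdm2+/-; pnp-/- parents, and their genotype was labelled mdm2-/- (or mdm2+/+, mdm2+/-); puma-/-; noxa-/-; p21-/-, so about 1/4 of each pool was expected to lack mdm2 and the true share was not measured. PNP embryos came from parents that were pnp-/- (puma-/-; noxa-/-; p21-/-), and every library of either pool type therefore carried mutations in puma, noxa and p21. No library came from wild-type embryos. Each library was made from a pool of about 50 embryos fertilized within 15 min of one another, with about 500 ng of RNA as input. Nothing in the labels ties the 2 libraries of a group to separate parents, and p-values thus cover the spread among the libraries at hand. The libraries of the comparison were chosen by their stage labels alone, so that no measured value entered the choice.

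At the earlier stage a zebrafish embryo is a late gastrula. The blastoderm is spreading over the yolk cell, mesoderm and endoderm are moving inward and converging on the axis, and Nodal, BMP, Wnt and FGF signals are setting the fates of the germ layers. By the later stage the blastoderm has closed over the yolk, the tailbud has formed at the closure point, and the neural plate, notochord and presomitic mesoderm are laid out before the first somite forms. During the same hours embryos go on breaking down transcripts that the mother loaded into the egg, and genes of regional identity such as the Hox clusters come on.

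Expression was given as TPM, a share of all transcripts corrected for gene length, and every difference below is on the scale of log2(TPM + 1), 10 hpf minus 8 hpf, with its standard error (SE). Levels written with ± are the mean and standard deviation (SD) over the 4 libraries of a stage, both pools included. Since TPM are shares, a fall can be a rise elsewhere, and in whole embryos fewer cells of a type and less RNA per cell cannot be told apart. After poly(A) selection, loss of a transcript and shortening of its poly(A) tail cannot be told apart either. This holds for the genes called cleared below as well. Between 13080 and 13902 genes reached 1 TPM in each of the 8 libraries, and the depth behind the values is unknown. The first principal component, with 51.7% of the variance, separated all 4 libraries of 10 hpf from all 4 of 8 hpf, and at both stages the MPNP libraries lay closer to the 8 hpf end than the PNP libraries. The part that a difference in age between the pools had in this was not tested. The second component, with 22.7%, separated the libraries numbered 1 from those numbered 2 in every group. ENSDARG00000080337, a gene with no symbol in the name table, was the most abundant one in each library numbered 2, at 26689 to 63924 TPM, whereas the translation factor gene eef1a1l1 led each library numbered 1. Replicate number and pool type were covariates by the definition of the comparison.

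Of 13651 genes with a mean of at least 1 TPM, 3921 (28.7%) were higher and 3330 (24.4%) were lower at 10 hpf (limma, Benjamini-Hochberg adjusted p under 0.05 over all genes tested). Together they were 53.1% of the genes, and the median difference over all genes was 0.043. Counts for the gene lists below stand against these shares of 28.7% and 24.4%. Those from a fit with no filter on low values stand against 16.4% higher and 14.3% lower among all genes in that fit. The change reached 2-fold in 601 risers (4.4%) and 466 fallers (3.41%). The balance of risers and fallers moved with the scaling, to 3605 higher and 3772 lower with median-ratio rescaling and 3670 and 3580 with quantile normalization. At 2-fold it was 562 higher and 521 lower with the former and 527 and 551 with the latter. The libraries of the stages did not overlap for 4603 genes (33.7%). Without the replicate number in the fit, 4701 genes passed, 2546 as higher and 2155 as lower. Within the libraries numbered 1 alone, 2267 genes passed as higher and 2697 as lower, and within those numbered 2 alone the counts were 2770 and 2052. Within MPNP libraries alone 2252 were higher and 2406 lower, and within PNP libraries alone 2436 and 2024. Among genes taken as marks of the gastrula, her1, sox32, ndr1 and tbxta fell, sox17, msgn1, vox and gsc rose, and her7 and vent did not pass. Of genes known to come up by the tailbud stage, meox1, myod1, pax2 (ENSDARG00000028148), krt5, he1.1 and ctslb rose, and foxd3 and mespaa fell. The calls of vox, gsc, myod1 and krt5 were lost without the replicate number. None of the 7251 genes was called in the opposite direction in any of these fits.

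**Figure D1:**
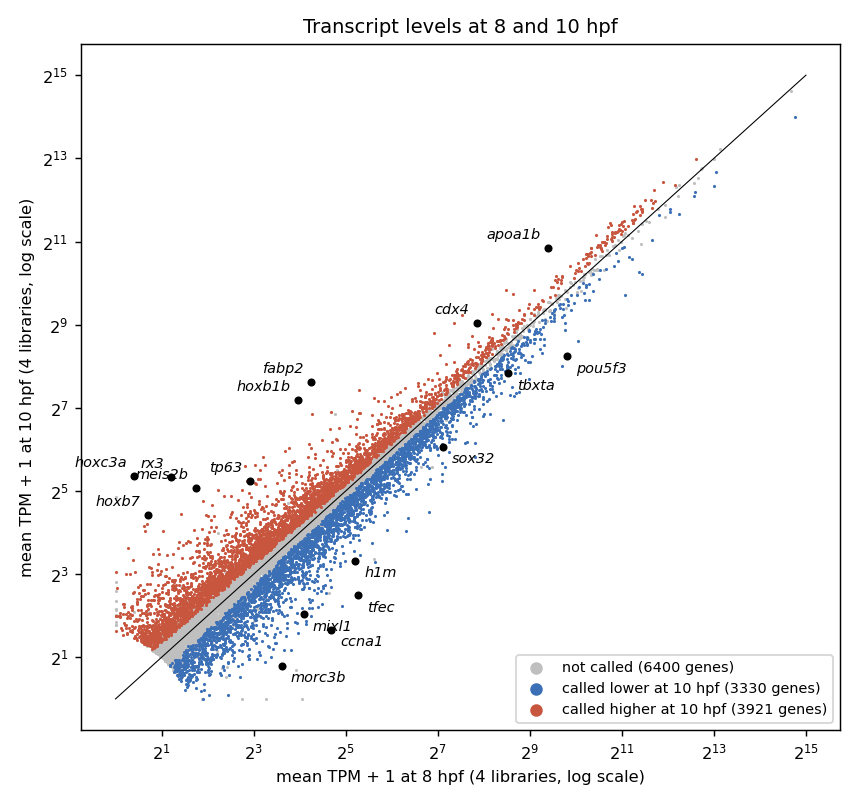
Mean level of each of 13651 genes over the 4 libraries of 8 hpf (x axis, TPM + 1, log scale) and over the 4 libraries of 10 hpf (y axis, same scale), with red and blue points for the 3921 genes called higher and the 3330 called lower by limma. Most called genes lie close to the diagonal, while hoxc3a, rx3, hoxb1b and fabp2 lie far above it and ccna1, morc3b, tfec and pou5f3 far below.

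The Hox genes, which encode the homeodomain factors that give cells their position along the head-to-tail axis, held the largest rise among all genes that met the rule for naming. hoxc3a (ENSDARG00000070339) stood at 0.33, 0.21, 0.36 and 0.41 TPM at 8 hpf and 27.8, 36.9, 42.5 and 52.3 TPM at 10 hpf, given here and below in the order MPNP 1, MPNP 2, PNP 1 and PNP 2. Every library of 10 hpf was far above every library of 8 hpf, and the difference was 4.91 ± 0.13 (limma, adjusted p = 4.1e-07). hoxb1b (ENSDARG00000054033), a hindbrain Hox gene that responds directly to retinoic acid, was already on at 11.5, 13.8, 17.0 and 16.3 TPM and reached 131, 139, 158 and 152 TPM. Its difference was 3.23 ± 0.073 (limma, adjusted p = 3.9e-07), the stages did not overlap, and the 4 libraries within each stage lay close together.

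More posterior Hox genes started from near 0. hoxb7 (ENSDARG00000056030) was at 1.25, 0.47, 0.41 and 0.4 TPM at 8 hpf and 8.89, 19.4, 21.8 and 31.9 TPM at 10 hpf, 3.63 ± 0.33 on the log2 scale. hoxc8 (ENSDARG00000070346) was at 0.69, 0, 0.74 and 0.99 TPM at 8 hpf and 12.7, 16.1, 16.8 and 24.5 TPM at 10 hpf, 3.54 ± 0.19 on that scale. hoxb9 (ENSDARG00000056023) was at 0.13, 0.18, 0.3 and 0.19 TPM at 8 hpf and 6.61, 10.1, 12.0 and 16.4 TPM at 10 hpf, 3.29 ± 0.17 on that scale. In all these genes the lowest library of 10 hpf was MPNP 1 and the highest was PNP 2, and limma's adjusted p was at most 5.0e-05. Among hoxb genes the difference was 0.70 ± 0.13 for hoxb1a, 2.01 ± 0.15 for hoxb3, 1.55 ± 0.20 for hoxb4, 1.91 ± 0.16 for hoxb8 and 1.86 ± 0.23 for hoxb10a, with limma adjusted p between 1.6e-05 and 0.0024. hoxa9a (ENSDARG00000105013), a posterior gene, was listed at 0 in 3 of the 4 libraries of 8 hpf and reached 1.87, 3.54, 7.23 and 8.81 TPM, and its difference was 2.49 ± 0.28 (limma, adjusted p = 1.7e-04). Only 16 of the 48 Hox IDs had a mean of 1 TPM, 15 of them through their level at 10 hpf alone, so a count over those 16 says little. In a fit with no filter on low values, 26 of the 47 Hox IDs seen above 0 in any library were called higher and 0 lower, against 16.4% higher and 14.3% lower among all 24769 genes in that fit.

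**Figure D2:**
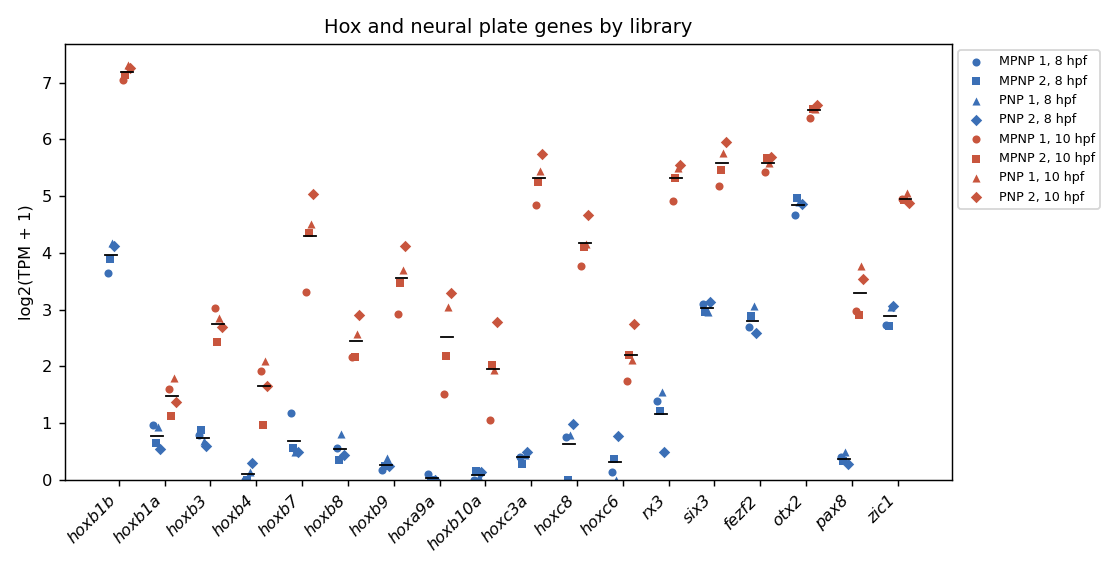
log2(TPM + 1) of 12 Hox and 6 neural plate genes in each library (marker shape, pool and number; blue, 8 hpf; red, 10 hpf), with the stage mean as a bar. All 18 genes stand higher in every library of 10 hpf than in any of 8 hpf, hoxb1b and otx2 from a base already well above 1 TPM and hoxa9a, hoxb10a and hoxc3a from near 0.

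Applied to all genes, a switch from a mean under 1 TPM at 8 hpf to at least 5 TPM at 10 hpf was met by 32 called genes (0.234% of those tested), and for 31 of them the libraries of the stages did not overlap. The exception was a gene with no symbol that was listed at 0 in MPNP 1 at 10 hpf. By construction these genes passed the filter through the later stage, so the list describes the end of the range and supports no test. Apart from Hox genes the most abundant were fst (ENSDARG00000052846), nr2f5 (ENSDARG00000033172), pax3 (ENSDARG00000010192) and maf (ENSDARG00000015890). Follistatin gene fst, whose product binds and blocks activins and BMPs, was at 0.56, 0.5, 0.45 and 0.62 TPM at 8 hpf and 11.9, 15.18, 16.7 and 23.6 TPM at 10 hpf. The nuclear receptor gene nr2f5 was at 0.27, 0.68, 0.76 and 0.52 TPM at 8 hpf and 11.4, 13.3, 16.1 and 21.2 TPM at 10 hpf. For pax3, a paired-box factor of the neural plate border and dorsal neural tube, the values were 0.81, 0.64, 1.26 and 0.82 TPM at 8 hpf and 9.30, 9.42, 14.5 and 11.9 TPM at 10 hpf. In each of these genes the lowest library of 10 hpf was several times the highest library of 8 hpf. The bZIP factor gene maf was less even, at 1.65, 0.54, 1.02 and 0.49 TPM at 8 hpf and 11.6, 6.77, 13.3 and 9.34 TPM at 10 hpf, and was higher in the libraries numbered 1 than in those numbered 2 at either stage. At 16 hpf, 31 of the 32 were at a mean of at least 5 TPM.

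Retinoic acid patterns the hindbrain and trunk, and the embryo limits it by enzymes that make and destroy it. Of 17 genes tested, 14 rose and 2 fell, with a median of 0.84 against 0.043 over all genes, and 3 of them were below 1 TPM at 8 hpf. With no filter, 17 of 30 were higher and 4 lower, against 16.4% and 14.3% of all genes in that fit. cyp26a1 (ENSDARG00000033999), which degrades retinoic acid, was at 177, 208, 206 and 219 TPM at 8 hpf and 335, 416, 319.8 and 411 TPM at 10 hpf. The stages did not overlap, and the difference was 0.86 ± 0.063 (limma, adjusted p = 1.7e-05). Its counterpart aldh1a2 (ENSDARG00000053493), which makes retinoic acid, moved less, from 54.1 ± 3.80 to 67.6 ± 7.01 TPM (0.31 ± 0.063, limma adjusted p = 0.0032). The reductase genes dhrs3 (ENSDARG00000044803) and dhrs3 (ENSDARG00000044982), which return retinal to retinol, rose by 0.67 ± 0.051 and 1.90 ± 0.18, the second from 0.03 TPM. In the opposite direction went rdh10 (ENSDARG00000012369), a retinol dehydrogenase gene, at -0.54 ± 0.051. Of the homeobox cofactors of Hox proteins, meis3 (ENSDARG00000002795) and meis2b (ENSDARG00000077840) rose by 2.14 ± 0.11 and 3.31 ± 0.10. The latter was at 2.21, 1.84, 2.75 and 2.65 TPM at 8 hpf and 28.1, 30.3, 32.1 and 39.2 TPM at 10 hpf. Nuclear receptor gene nr6a1 (ENSDARG00000101508) rose from an already high level, 215 ± 26.3 to 426 ± 72.8 TPM (0.98 ± 0.057). Across the genes named in this paragraph limma's adjusted p ran from 4.1e-07 to 0.0032.

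Genes that divide the neural plate into forebrain, midbrain and hindbrain were the next group. Of 46 tested, 31 rose and 10 fell, with a median of 0.88, and 8 were below 1 TPM at 8 hpf. With no filter 40 of 84 were higher and 12 lower, against 16.4% and 14.3% of all genes in that fit. The share of falls was thus near that over all genes. rx3 (ENSDARG00000052893), the eye field homeobox gene, was at 1.63, 1.33, 1.93 and 0.4 TPM at 8 hpf and 29.0, 38.7, 44.0 and 45.6 TPM at 10 hpf. The stages were far apart, at 4.15 ± 0.24 (limma, adjusted p = 5.1e-06), although the 8 hpf values were low and uneven. fezf2 (ENSDARG00000070677), a forebrain zinc finger gene, was at 5.44, 6.40, 7.37 and 5.01 TPM at 8 hpf and 41.8, 49.7, 46.7 and 50.5 TPM at 10 hpf, a difference of 2.78 ± 0.12. six3 (ENSDARG00000054879), of the anterior forebrain, was at 7.58, 6.74, 6.78 and 7.73 TPM at 8 hpf and 35.1, 43.1, 53.2 and 60.8 TPM at 10 hpf, a difference of 2.55 ± 0.12. In both genes every library of 10 hpf was several times the highest of 8 hpf.

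otx2 (ENSDARG00000011235), the forebrain and midbrain homeobox gene, went from 27.8 ± 2.40 to 90.4 ± 6.31 TPM (1.67 ± 0.065). The midbrain-hindbrain boundary gene her5 (ENSDARG00000008796) went from 11.5 ± 0.66 to 28.8 ± 3.31 TPM (1.24 ± 0.08), and gbx1 (ENSDARG00000071418), an anterior hindbrain gene, from 21.6 ± 3.77 to 40.8 ± 4.03 TPM (0.90 ± 0.093). Among zic genes, zinc finger factors of the dorsal and border neural plate, zic1 (ENSDARG00000015567) rose by 2.06 ± 0.09 and zic2 (ENSDARG00000015554) by 0.43 ± 0.067, whereas zic2 (ENSDARG00000037178) fell, at -0.38 ± 0.047. pax8 (ENSDARG00000015879), a paired-box gene of the otic placode and pronephros, rose from 0.3 ± 0.086 to 9.16 ± 2.99 TPM (2.92 ± 0.16). The SoxB1 genes sox3 and sox19a and the forebrain gene lhx5 moved the other way. sox3 (ENSDARG00000053569) was at 293, 266, 281 and 274 TPM at 8 hpf and 196, 179, 195 and 181 TPM at 10 hpf, so that every library of 8 hpf was above every library of 10 hpf (-0.57 ± 0.043). lhx5 (ENSDARG00000057936) fell with a difference of -0.74 ± 0.073, and sox19a (ENSDARG00000010770) with -0.38 ± 0.046, the call of sox19a being lost without the replicate number in the fit. The paralogue six3 (ENSDARG00000058008) also fell, at -0.60 ± 0.17, but its call was lost on leaving out any 1 of the PNP libraries. Limma's adjusted p for the other called genes of this paragraph was at most 8.4e-04.

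Neurogenesis genes rose more often than they fell. Of 30 genes tested, 18 rose and 5 fell (median 0.34), with 3 below 1 TPM at 8 hpf. With no filter 24 of 59 were higher and 6 lower, against 16.4% and 14.3% of all genes in that fit. The proneural gene neurog1 (ENSDARG00000056130) was at 0.35, 0.49, 0.78 and 0.2 TPM at 8 hpf and 2.58, 4.21, 5.03 and 5.41 TPM at 10 hpf, above every 8 hpf library in each 10 hpf library (1.85 ± 0.20, limma adjusted p = 1.2e-04). Notch target genes her15.2 (ENSDARG00000054560), her4.2 (ENSDARG00000094426) and her12 (ENSDARG00000032963) rose by 1.88 ± 0.12, 1.46 ± 0.13 and 1.60 ± 0.12. The Notch ligand gene dld (ENSDARG00000008785) fell from 52.8 ± 4.56 to 36.4 ± 5.75 TPM (-0.53 ± 0.068, limma adjusted p = 3.0e-04), and onecut1 (ENSDARG00000007982), a cut homeobox gene, from 28.4 ± 3.52 to 19.7 ± 3.41 TPM (-0.51 ± 0.095). Ligand gene dlb did not pass, at -0.15 ± 0.21 (limma, adjusted p = 0.56).

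At the border of the neural plate, 24 of 36 neural crest and placode genes rose and 6 fell, with a median of 0.58 and 6 members below 1 TPM at 8 hpf. With no filter the counts were 30 higher and 6 lower of 54, against 16.4% and 14.3% of all genes in that fit. msx1b (ENSDARG00000008886), a border homeobox gene downstream of BMP, was at 32.7, 38.2, 36.1 and 47.6 TPM at 8 hpf and 99.0, 121, 106 and 139 TPM at 10 hpf, and the stages were well apart (1.56 ± 0.055, limma adjusted p = 1.1e-06). snai1b (ENSDARG00000046019), a repressor of epithelial genes, rose from 5.50 ± 0.52 to 14.5 ± 3.33 TPM (1.23 ± 0.12), and twist1a (ENSDARG00000030402), a mesenchymal bHLH factor, from 12.6 ± 1.54 to 48.5 ± 8.31 TPM (1.85 ± 0.10). tfap2a (ENSDARG00000059279), a crest and epidermal factor, and foxi1 (ENSDARG00000104566), of the otic and epibranchial placodes, rose from higher bases by 0.44 ± 0.068 and 0.63 ± 0.07. By contrast foxd3 (ENSDARG00000021032), a crest specifier that the blastula also expresses, was at 60.4, 52.9, 58.8 and 62.0 TPM at 8 hpf and 36.8, 35.2, 36.6 and 31.6 TPM at 10 hpf. It fell with no overlap between the stages (-0.72 ± 0.07, limma adjusted p = 7.2e-05), while sox9 (ENSDARG00000003293), another crest factor, rose by 0.90 ± 0.14.

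Paraxial mesoderm gave a mixed account. Of 44 segmentation and somite genes tested, 22 rose and 12 fell (median 0.26), and 4 of the 44 were below 1 TPM at 8 hpf. With no filter 22 of 62 were higher and 12 lower. tbx6 (ENSDARG00000011785), a T-box factor of the anterior presomitic mesoderm, was at 6.32, 7.00, 6.6 and 5.21 TPM at 8 hpf and 40.9, 25.1, 55.1 and 26.7 TPM at 10 hpf. Its stages were far apart (2.32 ± 0.18, limma adjusted p = 2.2e-05). meox1 (ENSDARG00000007891), a homeobox gene of formed somites, was at 0.63, 0.93, 1.12 and 0.94 TPM at 8 hpf and 7.88, 7.37, 9.41 and 9.31 TPM at 10 hpf, likewise apart (2.32 ± 0.11). tcf15 (ENSDARG00000067544) and mespbb (ENSDARG00000097947), bHLH genes of forming somites, rose by 1.49 ± 0.16 and 1.83 ± 0.17. msgn1 (ENSDARG00000070546), of the posterior presomitic mesoderm, rose from 192 ± 32.7 to 264 ± 40.4 TPM (0.46 ± 0.083). Of the oscillating clock genes, her1 (ENSDARG00000014722) was at 67.0, 63.7, 64.8 and 61.9 TPM at 8 hpf and 47.8, 41.3, 52.3 and 36.9 TPM at 10 hpf, the highest 10 hpf library staying below the lowest of 8 hpf (-0.53 ± 0.077), and her7 did not pass (-0.088 ± 0.069, limma adjusted p = 0.31). mespab (ENSDARG00000068761) and mespaa (ENSDARG00000017078), which are also on in the gastrula margin, fell, at -0.997 ± 0.088 and -0.88 ± 0.088. Notch ligand gene dlc (ENSDARG00000002336) had a difference of -0.35 ± 0.058. Limma's adjusted p for the called genes here was at most 0.0019.

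Of 30 muscle genes tested 9 rose and 1 fell, the risers near the share over all genes, with a median of 0.30. With no filter 11 of 64 were higher and 2 lower. actc1a (ENSDARG00000042535), a cardiac-type actin gene, was at 23.6, 17.9, 33.2 and 24.1 TPM at 8 hpf and 96.9, 88.2, 155 and 137 TPM at 10 hpf (2.22 ± 0.075, limma adjusted p = 1.0e-06). The stages did not overlap, and at each stage the PNP library stood above the MPNP library of the same number. The myogenic factor gene myf5 (ENSDARG00000007277) rose from 10.8 ± 1.70 to 31.1 ± 8.36 TPM (1.416 ± 0.093), and smyd1 (ENSDARG00000091253), a muscle methyltransferase gene, from 2.96 ± 0.59 to 13.2 ± 3.26 TPM (1.82 ± 0.13). myod1 (ENSDARG00000030110) was at 0.76 ± 0.52 to 1.94 ± 0.68 TPM and overlapped between stages (0.75 ± 0.17, limma adjusted p = 0.0055, lost without the replicate number). The creatine kinase genes ckma and ckmb and the actin gene actc1b did not pass, at 0.39 ± 0.24, 0.27 ± 0.28 and 0.042 ± 0.26.

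In the axis and tailbud, 25 of 49 genes rose and 11 fell (median 0.36), and 2 of the 49 were below 1 TPM at 8 hpf. With no filter 26 of 68 were higher and 13 lower. cdx4 (ENSDARG00000036292), a caudal homeobox gene that acts upstream of posterior Hox genes, was at 179, 236, 221 and 278 TPM at 8 hpf and 428, 571, 483 and 625 TPM at 10 hpf. It was higher in every library of 10 hpf, by 1.202 ± 0.046 (limma, adjusted p = 1.5e-06). cdx1a (ENSDARG00000114554) rose from 25.0 ± 2.63 to 71.9 ± 6.56 TPM (1.49 ± 0.074). Sonic hedgehog, the signal of the axial midline, was read from 2 IDs. shh (ENSDARG00000038867) was at 1.24, 1.88, 1.71 and 2.19 TPM at 8 hpf and 8.99, 11.9, 10.8 and 16.2 TPM at 10 hpf, 2.22 ± 0.10 on the log2 scale, and shh (ENSDARG00000068567) was at 3.65 ± 0.26 to 6.31 ± 1.08 TPM, 0.64 ± 0.11. Brachyury genes went down: tbxta (ENSDARG00000101576) was at 400.5, 328, 391 and 345 TPM at 8 hpf and 246, 205, 252 and 204 TPM at 10 hpf, with no overlap (-0.69 ± 0.044, limma adjusted p = 8.2e-06). So did its paralogue tbxt (ENSDARG00000039806) (-0.76 ± 0.092), the T-box gene tbx16 (ENSDARG00000007329) (-0.76 ± 0.05), the ventral and tailbud gene eve1 (ENSDARG00000056012) (-0.51 ± 0.07) and foxa (ENSDARG00000087094), a forkhead gene of the axial midline (-1.100 ± 0.092). Notochord homeobox gene noto did not pass (-0.17 ± 0.09, limma adjusted p = 0.15).

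Nodal signalling specifies mesendoderm at the blastula and gastrula margin. Of 28 ligands, cofactors and targets tested, 18 fell and 6 rose, with a median of -0.42, and 1 of the 28 was below 1 TPM at 10 hpf. The counts with no filter were 18 lower and 5 higher of 30. The ligand gene ndr1 (ENSDARG00000057096) was nearly gone, at 1.93, 2.08, 1.33 and 3.02 TPM at 8 hpf and 0.52, 0.19, 0.37 and 0.65 TPM at 10 hpf, and ndr2 (ENSDARG00000101279) fell from 16.0 ± 1.83 to 9.18 ± 2.54 TPM. Their differences were -1.09 ± 0.19 and -0.77 ± 0.13. mixl1 (ENSDARG00000069252), a homeobox target of Nodal, was at 14.7, 18.5, 12.3 and 18.5 TPM at 8 hpf and 3.16, 3.55, 2.69 and 3.00 TPM at 10 hpf, and every library of 10 hpf lay far below the lowest of 8 hpf (-2.04 ± 0.10, limma adjusted p = 3.3e-06). Of the feedback inhibitors, lft1 (ENSDARG00000019920) fell from 41.8 ± 3.65 to 25.6 ± 2.54 TPM (-0.69 ± 0.066). The coreceptor gene tdgf1 did not pass, at 209 ± 29.5 to 201 ± 30.0 TPM (-0.06 ± 0.10, limma adjusted p = 0.63). The organizer gene gsc was at 27.17, 47.1, 35.7 and 42.7 TPM at 8 hpf and 38.4, 51.3, 45.1 and 49.1 TPM at 10 hpf, overlapping between stages. Its difference of 0.28 ± 0.10 (limma, adjusted p = 0.039) was lost without the replicate number, and also without any 1 library other than MPNP 2 of 8 hpf and PNP 2 of 10 hpf.

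Endoderm genes moved in both directions. Over the list 9 of 17 fell and 6 rose (median -0.31). sox32 (ENSDARG00000100591), the Sox factor at the head of the zebrafish endoderm program, was at 126, 148, 123 and 154 TPM at 8 hpf and 68.1, 74.9, 59.3 and 59.9 TPM at 10 hpf, with all 10 hpf libraries below all 8 hpf libraries (-1.06 ± 0.075, limma adjusted p = 1.5e-05). sox17 (ENSDARG00000101717), which acts downstream of it, rose, at 15.8 ± 3.23 to 21.0 ± 2.22 TPM, a difference of 0.40 ± 0.089 (limma, adjusted p = 0.0052). The chemokine receptor gene cxcr4 was read from 2 IDs. Cxcr4 paralogues guide endodermal and germ cells, and the symbols do not say which ID has which role. cxcr4 (ENSDARG00000041959) was at 84.4, 83.5, 74.9 and 78.3 TPM at 8 hpf and 17.4, 23.2, 17.7 and 19.6 TPM at 10 hpf. All its libraries of 10 hpf were far below those of 8 hpf (-1.997 ± 0.074). The other cxcr4 gene, cxcr4 (ENSDARG00000057633), fell less, at -0.31 ± 0.067. Among zinc finger GATA factors gata6 (ENSDARG00000103589) fell from 314 ± 26.3 to 207 ± 24.2 TPM and gata5 (ENSDARG00000017821) rose from 63.9 ± 9.60 to 83.6 ± 7.32 TPM, at -0.60 ± 0.051 and 0.39 ± 0.061. Forkhead gene foxa3 (ENSDARG00000012788) fell, at -0.39 ± 0.081, whereas foxa1 (ENSDARG00000102138), an endoderm gene of later stages, rose from 0.39 to 1.68 TPM (0.94 ± 0.16). prdx5 (ENSDARG00000055064), a peroxiredoxin gene that was carried in the endoderm list, rose from 56.2 ± 15.0 to 143 ± 25.5 TPM (1.34 ± 0.061).

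The prechordal plate gives rise to the hatching gland, which secretes the enzymes that dissolve the chorion. Of 29 genes 14 rose and 11 fell (median 0.24), and 2 of the 29 were below 1 TPM at 8 hpf. The highest difference on this list, 4.15, matched that of rx3, the eye field gene named above with the neural plate. With no filter 13 of 37 were higher and 11 lower. The hatching enzyme gene he1.1 (ENSDARG00000023656) was at 0, 0.54, 0.66 and 0.16 TPM at 8 hpf and 1.39, 2.59, 3.11 and 2.08 TPM at 10 hpf, and the cathepsin gene ctslb (ENSDARG00000074306) at 0.18, 0, 0.4 and 1.68 TPM at 8 hpf and 3.07, 4.61, 3.23 and 8.01 TPM at 10 hpf. Both stood higher in every library of 10 hpf, by 1.299 ± 0.22 and 1.90 ± 0.23 (limma, adjusted p = 0.0015 and 2.1e-04). The tetraspanin gene cd63 (ENSDARG00000025147) rose from 15.5 ± 3.68 to 32.7 ± 5.01 TPM (1.04 ± 0.072). klf17 (ENSDARG00000038792), the Krüppel-like factor of the early polster, fell from 179 ± 6.68 to 121 ± 20.6 TPM (-0.58 ± 0.077), and fscn1 (ENSDARG00000059680), the actin-bundling fascin gene, from 330.0 ± 24.8 to 162 ± 19.7 TPM (-1.03 ± 0.047).

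BMP and Wnt genes were compared by role. Of 28 BMP genes 12 rose and 5 fell (median 0.14), and 2 of the 28 were below 1 TPM at 8 hpf. The counts with no filter were 13 higher and 4 lower of 36. Among ligand genes bmp7a (ENSDARG00000018260) fell, at -0.44 ± 0.071, while bmp4 and bmp2 (ENSDARG00000041430) did not pass at 0.018 ± 0.066 and -0.062 ± 0.066. The antagonist gene chrd, at 141 ± 7.07 to 157 ± 26.1 TPM, did not pass either (0.14 ± 0.077, limma adjusted p = 0.15), and admp, a BMP ligand gene of the organizer, was at -0.19 ± 0.074 (limma, adjusted p = 0.053). szl (ENSDARG00000099637), an inhibitor of the enzyme that cleaves chordin, rose from 28.6 ± 6.203 to 54.4 ± 2.90 TPM (0.93 ± 0.11). Inside the cell, the inhibitory Smad gene smad6 (ENSDARG00000031763) rose by 1.06 ± 0.10, its paralogue smad6 (ENSDARG00000053209) did not pass (0.10 ± 0.081), and of the pseudoreceptor pair bambi (ENSDARG00000099677) rose by 1.65 ± 0.11 from 2.502 TPM and bambi (ENSDARG00000055381) did not pass (0.087 ± 0.05).

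Of 33 Wnt genes 17 rose and 4 fell (median 0.35), and 2 of the 33 were below 1 TPM at 8 hpf. With no filter 20 of 45 were higher and 4 lower. wnt8b (ENSDARG00000006911), a forebrain and midbrain ligand gene, was at 0.12, 0.12, 0.04 and 0.26 TPM at 8 hpf and 3.01, 3.78, 3.25 and 5.30 TPM at 10 hpf, from near 0 to a low level (2.07 ± 0.14, limma adjusted p = 1.3e-05). wnt5b (ENSDARG00000102464), a ligand of the polarity branch, rose from 46.6 ± 3.81 to 82.5 ± 10.0 TPM (0.80 ± 0.057), whereas wnt11f2 (ENSDARG00000004256), the ligand gene needed for convergence and extension, was at 68.6, 51.6, 70.4 and 58.6 TPM at 8 hpf and 41.8, 34.4, 38.6 and 40.6 TPM at 10 hpf. It fell without overlap (-0.66 ± 0.078, limma adjusted p = 2.1e-04). The genes axin2 (ENSDARG00000100149) and sp5 (ENSDARG00000076571), both known as targets of beta-catenin, rose by 0.68 ± 0.058 and 0.83 ± 0.08, but ctnnb2 (ENSDARG00000023472), one of the beta-catenin genes, fell from 352 ± 57.5 to 235 ± 40.0 TPM (-0.58 ± 0.046) and rspo3 (ENSDARG00000070081), a Wnt-enhancing secreted factor, from 19.3 ± 3.05 to 6.37 ± 1.11 TPM (-1.46 ± 0.14). The receptor gene fzd10 (ENSDARG00000068213) rose by 1.56 ± 0.084 and the secreted inhibitor gene frzb (ENSDARG00000018383) by 0.70 ± 0.064. The head inducer dkk1b did not pass (-0.26 ± 0.10, limma adjusted p = 0.061).

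FGF genes gave 7 higher (30.4%) and 9 lower (39.1%) of 23 (median -0.032), against 28.7% and 24.4% over all genes. The ETS targets etv4 (ENSDARG00000018303) and etv5b (ENSDARG00000044511) fell, at -0.59 ± 0.067 and -0.28 ± 0.045, and the feedback inhibitor gene spry4 (ENSDARG00000068732) was at 12.7, 14.6, 13.2 and 14.1 TPM at 8 hpf and 23.1, 30.6, 26.2 and 35.8 TPM at 10 hpf, higher in every library of 10 hpf (1.02 ± 0.085, limma adjusted p = 3.6e-05). fgf17 (ENSDARG00000102778) fell from 20.4 ± 1.36 to 11.4 ± 0.75 TPM (-0.79 ± 0.081), while fgf8 (ENSDARG00000003399) did not pass (0.22 ± 0.11). Of 42 genes of planar polarity and convergence, 22 rose and 12 fell, and 1 of the 42 was below 1 TPM at 8 hpf. The counts with no filter were 24 higher and 14 lower of 50. Falls included snai1a (ENSDARG00000056995), a Snail repressor needed for mesendoderm migration, at 635, 382, 608 and 439 TPM at 8 hpf and 342, 220.5, 347 and 195 TPM at 10 hpf (-0.91 ± 0.066), and pcdh8 (ENSDARG00000006467), the paraxial protocadherin gene, at 27.4 ± 6.30 to 16.2 ± 3.25 TPM (-0.72 ± 0.066). The highest 10 hpf library of snai1a lay below the lowest 8 hpf library. The core polarity gene celsr1 (ENSDARG00000069185) rose by 0.42 ± 0.079, and gpc4, a glypican gene, did not pass (-0.056 ± 0.059).

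**Figure D3:**
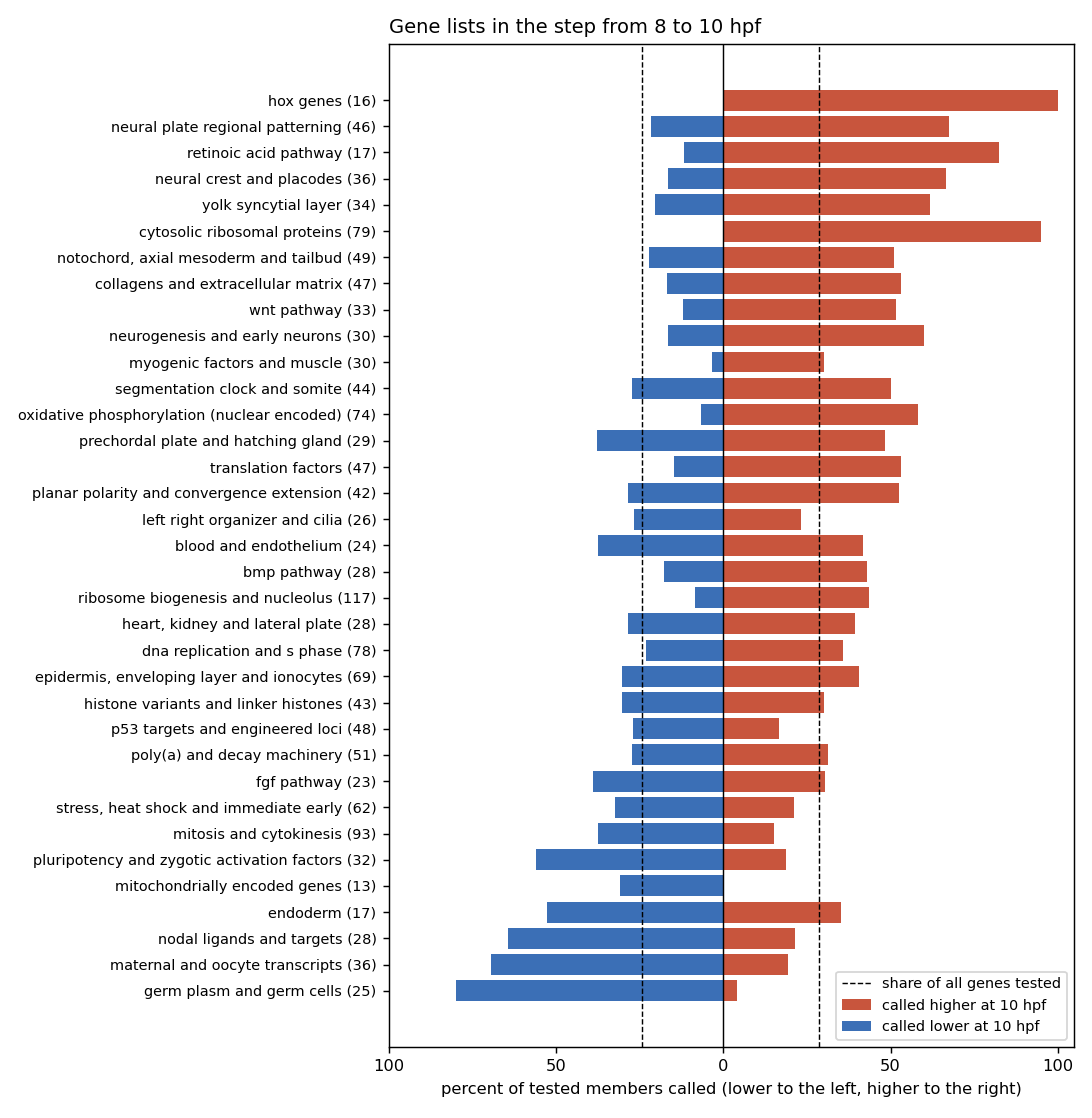
Percent of the tested members of each list that were called higher (red, right) or lower (blue, left) at 10 hpf, with the number tested in brackets, lists ordered by their median difference, and dashed lines at the shares over all 13651 genes (28.7% and 24.4%). Hox, neural plate and retinoic acid genes stand at the top and germ plasm, maternal and Nodal genes at the bottom, and 15 of the 16 Hox genes shown passed the filter through 10 hpf alone.

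Surface ectoderm genes moved in both directions. Over 69 genes of epidermis, enveloping layer and ionocytes 28 rose (40.6%) and 21 fell (30.4%), against 28.7% and 24.4% over all genes. The median of 0.04 was close to that of all genes, and 4 of the 69 were below 1 TPM at 8 hpf. The counts with no filter were 28 higher and 21 lower of 82, against 16.4% and 14.3% of all genes in that fit. tp63 (ENSDARG00000044356), the p53 relative that maintains basal epidermis, was at 8.23, 6.21, 6.74 and 5.10 TPM at 8 hpf and 40.6, 31.8, 42.2 and 31.6 TPM at 10 hpf, with the stages far apart (2.31 ± 0.081, limma adjusted p = 1.1e-06). dlx3 (ENSDARG00000014626), a homeobox gene of the border ectoderm, rose from 38.2 ± 9.06 to 172 ± 7.21 TPM (2.17 ± 0.11), and foxi3a (ENSDARG00000055926), the ionocyte specifier, from 0.29 ± 0.24 to 4.89 ± 0.76 TPM (2.196 ± 0.16). Of the keratin genes, krt18a.1 and krt8 did not pass, at -0.0043 ± 0.051 and -0.035 ± 0.053, krt92 was at -0.074 ± 0.054, and krt17 (ENSDARG00000094041) rose from 432 ± 59.5 to 657 ± 86.0 TPM (0.60 ± 0.044). Tight-junction genes cldne (ENSDARG00000043128) and cldnb (ENSDARG00000009544) fell, at -0.77 ± 0.055 and -0.58 ± 0.046, as did the adhesion gene epcam (ENSDARG00000040534), from 73.4 ± 6.80 to 33.6 ± 9.84 TPM (-1.15 ± 0.11). elf3 (ENSDARG00000077982), an epithelial ETS factor, was at 13.3, 13.6, 9.38 and 9.88 TPM at 8 hpf and 1.52, 1.1, 1.2 and 1.22 TPM at 10 hpf, one of the largest falls of all (-2.46 ± 0.12, limma adjusted p = 3.3e-06).

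The yolk syncytial layer, the nuclei-rich surface of the yolk cell that exports lipid to the embryo, held rises of abundant genes. Of 34 genes tested 21 rose and 7 fell (median 0.56), and 2 of the 34 were below 1 TPM at 8 hpf. With no filter 22 of 47 were higher and 7 lower. apoa1b (ENSDARG00000101324), the main apolipoprotein of high-density particles, was at 753, 459, 894 and 579 TPM at 8 hpf and 2227, 1330.0, 2458 and 1333 TPM at 10 hpf, and apobb.1 (ENSDARG00000022767), the structural apolipoprotein of larger particles, at 9.95, 15.0, 9.53 and 12.5 TPM at 8 hpf and 41.6, 74.2, 51.7 and 76.2 TPM at 10 hpf. Both were higher in every library of 10 hpf, by 1.44 ± 0.064 and 2.26 ± 0.10 (limma, adjusted p = 1.9e-06 and 1.8e-06). apoa1a (ENSDARG00000012076) and apoa2 (ENSDARG00000015866) rose by 1.37 ± 0.056 and 1.47 ± 0.075. fabp2 (ENSDARG00000006427), a fatty acid-binding protein gene that was not on the list, was at 25.2, 17.9, 16.6 and 12.6 TPM at 8 hpf and 201, 173, 236 and 170.1 TPM at 10 hpf. It rose more than any listed member, at 3.39 ± 0.12 (limma, adjusted p = 1.5e-06). Apolipoprotein gene apoeb, the most abundant of them, did not pass at 6764 ± 747 to 6839 ± 297 TPM (0.021 ± 0.058, limma adjusted p = 0.77). Some members fell, the early regulator gene mxtx2 (ENSDARG00000015906) falling from 2.42 ± 0.81 to 0.56 ± 0.27 TPM (-1.11 ± 0.16), and the transporter gene slc26a1 (ENSDARG00000029832) from 63.6 ± 10.8 to 43.9 ± 6.197 TPM (-0.52 ± 0.055).

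Of 32 pluripotency and zygotic activation genes 18 fell and 6 rose (median -0.26), and 2 of the 32 were below 1 TPM at 10 hpf. The counts with no filter were 18 lower and 6 higher of 33. pou5f3 (ENSDARG00000044774), the fish relative of mammalian Oct4 and one of the factors that open the zygotic genome, was at 1035, 889.7, 874 and 810.0 TPM at 8 hpf and 348, 289, 317 and 251 TPM at 10 hpf. All libraries lost about the same share, and the stages were far apart (-1.58 ± 0.049, limma adjusted p = 5.9e-07). Its partner nanog (ENSDARG00000075113) was lower and less even, at 19.8, 20.9, 36.4 and 14.3 TPM at 8 hpf and 13.3, 11.7, 13.5 and 10.5 TPM at 10 hpf, but without overlap (-0.78 ± 0.19, limma adjusted p = 0.0096). foxh1 (ENSDARG00000055630), a DNA-binding partner of Nodal effectors, fell from 114 ± 10.5 to 62.1 ± 5.34 TPM (-0.86 ± 0.061), and eomes (ENSDARG00000006640), a maternal T-box factor, was at 2.84, 3.63, 6.82 and 2.18 TPM at 8 hpf and 0.42, 0.69, 0.46 and 0.43 TPM at 10 hpf (-1.62 ± 0.26). sox19b (ENSDARG00000040266), the maternal SoxB1 gene, rose instead, from 52.6 ± 2.97 to 70.9 ± 3.05 TPM (0.43 ± 0.062), and klf2a (ENSDARG00000042667), a Krüppel-like factor, rose from 8.15 ± 0.86 to 55.7 ± 4.81 TPM (2.63 ± 0.065). The ventral repressor genes vent and ved did not pass, at 0.025 ± 0.08 and -0.12 ± 0.073.

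Egg-loaded and germ plasm transcripts held the highest shares of falls among the lists. Of 36 maternal and oocyte genes 25 fell and 7 rose (median -0.69), and 3 of the 36 were below 1 TPM at 10 hpf. The counts with no filter were 27 lower and 6 higher of 44, against 14.3% and 16.4% of all genes in that fit. For germ plasm and germ cell genes they were 19 lower and 1 higher of 27, and 1 of those tested was below 1 TPM at 10 hpf. Of 25 germ plasm and germ cell genes 20 fell and 1 rose (median -0.72), and the germ-cell riser was celf1 (ENSDARG00000005315), a broadly expressed RNA-binding protein gene. ccna1 (ENSDARG00000043236), the egg and early-cleavage form of cyclin A, was at 19.3, 32.0, 33.8 and 13.7 TPM at 8 hpf and 1.5, 3.2, 2.15 and 1.87 TPM at 10 hpf. It had the largest fall among the genes that met the rule for naming, -2.95 ± 0.29 (limma, adjusted p = 7.9e-05), with uneven levels at 8 hpf and no overlap. cth1 (ENSDARG00000057328), a maternal zinc finger gene, fell from 18.0 ± 6.56 to 2.99 ± 0.62 TPM (-2.205 ± 0.14), and wee2 (ENSDARG00000012718), the oocyte meiosis kinase gene, from 6.25 ± 2.65 to 1.44 ± 0.32 TPM (-1.51 ± 0.22).

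In the germ line, ddx4 (ENSDARG00000014373) (vasa), a helicase of germ cells, was at 68.4, 83.0, 71.7 and 90.2 TPM at 8 hpf and 26.5, 33.0, 25.7 and 33.4 TPM at 10 hpf, with every 10 hpf library below every 8 hpf library (-1.37 ± 0.054, limma adjusted p = 1.5e-06). buc (ENSDARG00000096095), the organizer of germ plasm, was at 0.93, 2.37, 4.1 and 2.32 TPM at 8 hpf and 0.38, 0.57, 0.17 and 0.43 TPM at 10 hpf (-1.23 ± 0.26), dazl (ENSDARG00000036214) fell from 4.91 ± 0.6 to 1.97 ± 0.92 TPM (-1.04 ± 0.19), and piwil1 (ENSDARG00000041699), the piRNA-binding gene, from 5.83 ± 0.31 to 1.51 ± 0.38 TPM (-1.45 ± 0.11). The germ cell gene nanos3 was at 13.2 ± 4.01 to 10.7 ± 1.26 TPM and did not pass (-0.24 ± 0.11, limma adjusted p = 0.081). Of the zona pellucida genes, which encode the egg coat, zp2.1 (ENSDARG00000086352) fell from 129 ± 17.8 to 88.0 ± 8.79 TPM (-0.54 ± 0.087) and zp3b (ENSDARG00000039828) from 33.7 ± 5.67 to 20.5 ± 3.12 TPM (-0.69 ± 0.066). The decay machinery gave 16 higher (31.4%) and 14 lower (27.5%) of 51, near the shares over all genes of 28.7% and 24.4%. Its embryonic poly(A)-binding genes pabpc1l (ENSDARG00000002597) and pabpn1l (ENSDARG00000087996) fell, at -1.25 ± 0.11 and -1.87 ± 0.22, ythdf2 (ENSDARG00000014498), a reader of methylated maternal mRNA, fell from 125 ± 6.78 to 87.2 ± 8.46 TPM (-0.52 ± 0.053), and dicer1 (ENSDARG00000001129), the microRNA-processing enzyme gene, rose from 3.73 ± 0.49 to 8.78 ± 1.84 TPM (1.03 ± 0.13).

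**Figure D4:**
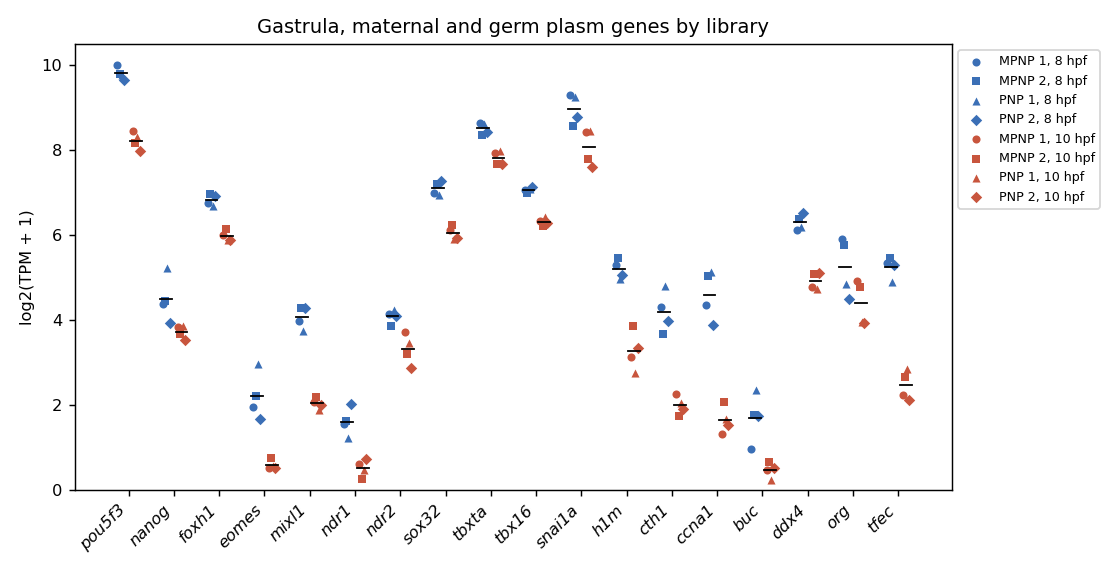
log2(TPM + 1) of 18 gastrula, maternal and germ plasm genes in each library (marker shape, pool and number; blue, 8 hpf; red, 10 hpf), with the stage mean as a bar. Every library of 10 hpf lies below every library of 8 hpf for all genes shown except org, where the PNP libraries of 8 hpf fall within the 10 hpf values.

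Outside the lists, the largest falls included tfec (ENSDARG00000098745), a transcription factor gene of the Mitf family, at 39.4, 43.0, 28.8 and 38.0 TPM at 8 hpf and 3.72, 5.26, 6.16 and 3.33 TPM at 10 hpf, and rhoq (ENSDARG00000025953), a small GTPase gene, at 12.4, 14.5, 12.2 and 13.5 TPM at 8 hpf and 1.11, 1.95, 1.15 and 0.8 TPM at 10 hpf. Their differences were -2.78 ± 0.18 and -2.67 ± 0.14 (limma, adjusted p = 1.0e-05 and 3.8e-06), and neither overlapped between stages. ftr90 (ENSDARG00000097373), cnksr2 (ENSDARG00000073707), arl13a (ENSDARG00000052575), fam169ab (ENSDARG00000004177) and hic1 (ENSDARG00000055493) fell, with differences from -2.40 to -2.202. Clearance from a mean of at least 5 TPM to under 1 TPM was met by 8 called genes (0.0586%), with no overlap between the stages in any of them, and 5 had a symbol other than a clone-derived one. They were morc3b (ENSDARG00000043271), znf1126 (ENSDARG00000103458), satb1a (ENSDARG00000057649), b3galt10.1 (ENSDARG00000061432) and lsm14b (ENSDARG00000025386). morc3b (ENSDARG00000043271), of a family of chromatin ATPases, was at 13.6, 12.9, 8.91 and 9.61 TPM at 8 hpf and 0.55, 0.44, 0.64 and 1.27 TPM at 10 hpf (-2.83 ± 0.19, limma adjusted p = 1.2e-05), yet stood at 6.62 ± 1.21 TPM at 16 hpf. The chromatin organizer gene satb1a was at 7.82, 5.72, 5.70 and 6.78 TPM at 8 hpf and 0.87, 0.79, 1.01 and 1.09 TPM at 10 hpf (-1.94 ± 0.14). For lsm14b, an RNA-granule protein gene, PNP 1 of 8 hpf stood apart at the top of 3.33, 6.05, 17.4 and 2.84 TPM at 8 hpf and 0.86, 1.06, 0.96 and 0.87 TPM at 10 hpf (-1.82 ± 0.42, limma adjusted p = 0.0066). Without PNP 1 its mean at 8 hpf was under the 5 TPM needed to count as cleared.

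Histone-variant and linker genes were called higher and lower in equal number, 13 and 13 of 43 (30.2% each). That was near the shares over all genes of 28.7% and 24.4%. The balance did not hold without the replicate number, where 4 rose and 12 fell, against 2546 higher and 2155 lower among all 13651 genes. In MPNP libraries alone 9 rose and 15 fell, and in PNP libraries alone 5 rose and 9 fell. The embryonic linker histone gene h1m (ENSDARG00000102892) was at 38.2, 42.9, 30.3 and 32.5 TPM at 8 hpf and 7.74, 13.6, 5.68 and 9.09 TPM at 10 hpf. It fell without overlap between the stages, at -1.93 ± 0.11 (limma, adjusted p = 6.3e-06). macroh2a2 (ENSDARG00000087897) rose from 36.6 ± 3.32 to 91.6 ± 4.04 TPM (1.302 ± 0.054) while macroh2a1 (ENSDARG00000099329) fell from 43.5 ± 6.55 to 32.5 ± 8.43 TPM (-0.43 ± 0.072). The H3.3 gene h3f3a (ENSDARG00000020504) fell from 8154 ± 230.0 to 5159.6 ± 530.3 TPM (-0.67 ± 0.072) and h3f3b.1 (ENSDARG00000068434) rose from 213 ± 10.7 to 271 ± 19.9 TPM (0.34 ± 0.065).

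In DNA replication 28 of 78 genes rose (35.9%) and 18 fell (23.1%), against 28.7% and 24.4% over all genes. Licensing and G1/S genes were among the falls: cdt1 (ENSDARG00000051854) was at 406, 414, 357 and 386 TPM at 8 hpf and 183, 188, 172 and 174 TPM at 10 hpf, lower in every library of 10 hpf (-1.12 ± 0.043, limma adjusted p = 1.5e-06), as were cdc6 (ENSDARG00000009942) (-0.73 ± 0.051) and the cyclin E genes ccne1 (ENSDARG00000098622) (-0.73 ± 0.051) and ccne2 (ENSDARG00000098529) (-0.62 ± 0.046). The helicase subunit mcm6 was read from 2 IDs that moved apart. mcm6 (ENSDARG00000033231) fell from 46.1 ± 6.83 to 21.3 ± 3.11 TPM (-1.08 ± 0.09), and mcm6 (ENSDARG00000057683) rose from 171 ± 11.2 to 205 ± 11.9 TPM (0.26 ± 0.066). mcm2 (ENSDARG00000102798) and orc1 (ENSDARG00000039217) rose by 0.83 ± 0.089 and 0.82 ± 0.061. The clamp gene pcna did not pass, at 1385 ± 221 to 1279.6 ± 111 TPM (-0.10 ± 0.052, limma adjusted p = 0.12).

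Mitosis genes leaned down, with 35 lower and 14 higher of 93 (median -0.10). fbxo5 (ENSDARG00000039020), the inhibitor of the anaphase-promoting complex, was at 218, 239.8, 200.1 and 243 TPM at 8 hpf and 93.4, 107, 91.6 and 93.7 TPM at 10 hpf, with no overlap (-1.21 ± 0.053, limma adjusted p = 1.8e-06). Cyclin genes ccna2 (ENSDARG00000011094) and ccnb2 (ENSDARG00000036180) fell, at -0.83 ± 0.057 and -0.35 ± 0.074, as did cdc20 (ENSDARG00000100741), at -0.49 ± 0.062, while cdk1 (ENSDARG00000087554) rose by 0.34 ± 0.058. The proliferation marker mki67 and the kinase gene plk1 did not pass, at 0.004 ± 0.072 and -0.049 ± 0.053. Paralogous copies of the spindle midzone gene prc1 moved apart, prc1 (ENSDARG00000100918) falling from 149.7 ± 20.1 to 79.0 ± 12.0 TPM (-0.92 ± 0.05) and prc1 (ENSDARG00000005993) rising from 7.02 ± 0.72 to 11.0 ± 1.36 TPM (0.58 ± 0.10). The cyclin gene ccndx (ENSDARG00000019741) was at 2.13, 1.75, 1.55 and 1.33 TPM at 8 hpf and 18.2, 20.4, 20.6 and 23.6 TPM at 10 hpf, where the lowest library of 10 hpf was several times the highest of 8 hpf (3.01 ± 0.13, limma adjusted p = 1.8e-06).

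Many genes of protein synthesis and respiration rose by small amounts. Of 79 cytosolic ribosomal protein genes 75 rose and 0 fell, with a median of 0.40 and a highest difference of 0.72. rpl3 (ENSDARG00000003599) was at 1462, 1214, 1509 and 1353 TPM at 8 hpf and 2255, 2082, 2359.9 and 2408 TPM at 10 hpf, and rplp0 (ENSDARG00000051783) at 2162, 1437, 1998 and 1340.2 TPM at 8 hpf and 3319, 2218, 3083 and 2195 TPM at 10 hpf. Neither overlapped between the stages (0.72 ± 0.056 and 0.65 ± 0.045, limma adjusted p = 2.4e-05 and 1.4e-05). The count of risers was 19 without the replicate number in the fit, where 2546 of all 13651 genes were called higher. It was 68 with median-ratio rescaling and 57 with quantile normalization, which lowered the median to 0.26. In libraries numbered 1 alone it was 75, in those numbered 2 alone 68, in MPNP libraries alone 58 and in PNP libraries alone 44. Ribosome biogenesis genes rose in 51 of 117 cases and fell in 10 (median 0.13). Without the replicate number 20 rose, near the share over all genes in that fit, and 5 fell. polr1a (ENSDARG00000098375), the largest subunit of RNA polymerase I, rose from 23.0 ± 0.83 to 35.5 ± 5.38 TPM (0.59 ± 0.077), wdr12 (ENSDARG00000003287), of large-subunit assembly, from 55.6 ± 2.17 to 89.3 ± 11.1 TPM (0.67 ± 0.063), and the helicase gene ddx5 (ENSDARG00000038068) fell from 1251 ± 244 to 766 ± 128 TPM (-0.70 ± 0.047). The nucleolar genes fbl, nop56, nop58 and dkc1 did not pass, at -0.039 ± 0.054, 0.049 ± 0.058, -0.0091 ± 0.069 and -0.071 ± 0.046.

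Translation factors rose in 25 of 47 cases and fell in 7. Without the replicate number 9 rose, again near the share over all genes in that fit, and 3 fell. eef1g (ENSDARG00000056119) rose from 494 ± 16.3 to 672 ± 16.8 TPM (0.44 ± 0.046), and eif4e1b (ENSDARG00000014565), the oocyte form of the cap-binding protein, fell from 35.1 ± 5.32 to 19.8 ± 4.12 TPM (-0.80 ± 0.084). Nuclear genes of oxidative phosphorylation rose in 43 of 74 cases and fell in 5 (median 0.25). In the fit without the replicate number 16 rose, a share not far above that over all genes. atp5pd (ENSDARG00000098355), an ATP synthase subunit gene, rose from 22.2 ± 2.36 to 36.7 ± 1.98 TPM (0.70 ± 0.074). Of 13 genes on the mitochondrial genome 0 rose and 4 fell, and those calls were lost without the replicate number. In libraries numbered 1 alone 0 of them fell and in those numbered 2 alone 12 did, with medians of -0.063 and -0.60.

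The lines carried mutations in the p53 pathway, so its genes were followed through the same step. Among 48 p53 targets and related genes 8 rose and 13 fell (median 0.011). mdm2 (ENSDARG00000033443), which encodes the ubiquitin ligase that restrains p53, was at 116, 149, 112 and 125 TPM at 8 hpf and 74.1, 117, 61.2 and 76.4 TPM at 10 hpf. It fell in each pool and number, but MPNP 2 of 10 hpf reached the values of 8 hpf (-0.64 ± 0.09, limma adjusted p = 5.3e-04). The mutated loci were still transcribed at low level. Transcripts of cdkn1a (p21) were at 3.63, 4.01, 2.80 and 3.06 TPM at 8 hpf and 5.74, 4.37, 2.22 and 2.88 TPM at 10 hpf and those of pmaip1 (noxa) at 2.98, 10.9, 3.88 and 7.05 TPM at 8 hpf and 2.89, 9.44, 2.87 and 7.68 TPM at 10 hpf, and neither passed (0.084 ± 0.15 and -0.11 ± 0.14, limma adjusted p = 0.66 and 0.54). For bbc3 (puma) the values were 2.57, 3.83, 1.62 and 1.14 TPM at 8 hpf and 3.96, 7.75, 1.41 and 2.90 TPM at 10 hpf, and its call (0.52 ± 0.19, limma adjusted p = 0.046) was lost without the replicate number and without any 1 library except PNP 1 of either stage.

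Other p53 targets moved in either direction or did not pass. ccng1 (ENSDARG00000076667), a cyclin G gene, was at 898, 891, 796 and 783 TPM at 8 hpf and 576, 887, 453 and 721 TPM at 10 hpf, overlapping between stages (-0.39 ± 0.12, limma adjusted p = 0.026), and the call was lost without the replicate number or without any 1 of the libraries numbered 1. The values of foxo3b and phlda3 differed more between MPNP and PNP libraries than between the stages, and neither passed (-0.034 ± 0.25 and 0.01 ± 0.22). rrm2b (ENSDARG00000033367), a ribonucleotide reductase subunit gene, rose from 36.3 ± 7.10 to 82.4 ± 13.5 TPM (1.17 ± 0.072), and plk3 (ENSDARG00000038754), a stress kinase gene, fell from 71.5 ± 4.19 to 31.9 ± 2.33 TPM (-1.14 ± 0.065, limma adjusted p = 5.1e-06). Among stress genes ddit4 (ENSDARG00000037618), an inhibitor of mTOR signalling, fell from 266 ± 50.6 to 143 ± 23.3 TPM (-0.89 ± 0.056) and cebpd (ENSDARG00000087303), a CCAAT-binding factor gene, rose from 5.82 ± 0.58 to 23.5 ± 2.52 TPM (1.84 ± 0.091). The heat-shock gene hsp70.3 was at 67.1, 110.2, 7.10 and 6.38 TPM at 8 hpf and 35.0, 29.5, 32.1 and 86.8 TPM at 10 hpf, lower at 10 hpf in both MPNP libraries and higher in both PNP libraries, and did not pass over the 8 libraries (0.70 ± 0.76, limma adjusted p = 0.46).

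Whether the step differed between pool types was tested directly. No gene had a pool-by-stage interaction at an adjusted p under 0.05 in limma, 907 (6.64%) had an unadjusted p under 0.05, and hsp70.3 had the lowest adjusted p, 0.35, with a difference of steps (MPNP minus PNP) of -4.20. With 2 libraries per pool type and stage, a count of 0 does not show that the steps were alike. For mdm2 the difference of steps was 0.28 (limma, adjusted p = 0.82). Between libraries numbered 1 and 2, likewise, 0 genes passed in limma and 1283 (9.4%) had an unadjusted p under 0.05, with a lowest adjusted p of 0.22.

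Genes of other tissues moved in both directions. Of 24 blood and endothelial genes 10 rose (41.7%) and 9 fell (37.5%), and with no filter 12 of 52 were higher and 12 lower. npas4l (ENSDARG00000116511), the earliest regulator of both lineages, rose from 1.28 ± 0.4 to 2.75 ± 0.78 TPM (0.71 ± 0.13), while lmo2 (ENSDARG00000095019) fell from 51.4 ± 7.12 to 30.4 ± 3.205 TPM (-0.74 ± 0.062) and drl (ENSDARG00000078004) from 18.3 ± 2.23 to 8.26 ± 1.41 TPM (-1.07 ± 0.11). Of 28 heart, kidney and lateral plate genes 11 rose (39.3%) and 8 fell (28.6%), and with no filter 16 of 58 were higher and 10 lower. pax2 (ENSDARG00000028148), a kidney and midbrain paired-box gene, rose from 0.38 ± 0.2 to 4.01 ± 0.89 TPM (1.85 ± 0.12), gata4 (ENSDARG00000098952) from 5.76 ± 0.41 to 12.8 ± 1.54 TPM (1.02 ± 0.094), and lhx1a (ENSDARG00000014018), a LIM homeobox gene of the organizer and later of the kidney, fell from 21.9 ± 1.40 to 5.30 ± 0.67 TPM (-1.87 ± 0.095). Cilia genes gave 6 higher (23.1%) and 7 lower (26.9%) of 26, near the shares over all genes of 28.7% and 24.4%. With no filter on low values 16 of 53 were higher and 5 lower, against 16.4% and 14.3% of all genes in that fit. foxj1, the master regulator of motile cilia, did not pass (0.31 ± 0.13, limma adjusted p = 0.071).

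Extracellular matrix genes rose in 25 of 47 cases and fell in 8 (median 0.36), and 4 of the 47 were below 1 TPM at 8 hpf. With no filter on low values 27 of 100 were higher and 11 lower, against 16.4% and 14.3% of all genes in that fit. Fibronectin was read from 2 IDs. fn1 (ENSDARG00000019815) was at 20.7, 17.4, 25.8 and 21.9 TPM at 8 hpf and 64.2, 67.8, 85.6 and 79.3 TPM at 10 hpf, without overlap (1.75 ± 0.067, limma adjusted p = 1.5e-06). fn1 (ENSDARG00000006526) rose from 3.44 ± 0.44 to 15.5 ± 2.78 TPM (1.88 ± 0.091). The basement membrane gene nid2 (ENSDARG00000075707) rose from 93.5 ± 18.4 to 193 ± 25.7 TPM (1.05 ± 0.053), and has2 (ENSDARG00000036987), which makes hyaluronan, fell from 36.0 ± 5.95 to 16.7 ± 1.43 TPM (-1.05 ± 0.072). The collagen genes of the notochord sheath named here did not pass: col2a1 (ENSDARG00000011407) was at 1.49 ± 0.33 to 1.47 ± 0.36 TPM and col8a1a at 3.97 ± 1.02 to 4.64 ± 0.76 TPM (-0.017 ± 0.14 and 0.20 ± 0.11).

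The later course of these genes was read in libraries that the step did not use, by comparing 16 with 12 hpf in 4 libraries each. Among all genes tested 28.1% rose and 35.9% fell in that later step (limma, adjusted p under 0.05). Of all genes that had risen by 10 hpf, 36.3% rose again, which was 37.1% of all later risers, and 29.5% fell. Of those that had risen at least 2-fold, 45.9% rose again and 28.3% fell, and they made up 7.2% of all later risers and 3.47% of all later fallers. Of all genes that had fallen by 10 hpf, 51.8% fell further, which was 35.2% of all later fallers, and 21.9% rose. Those that had fallen at least 2-fold were split, with 32.2% lower and 33.9% higher. Genes already near 0 TPM at 12 hpf had little room to be called lower. For example, znf1126 was at 0.09 TPM at 12 hpf and 0.065 TPM at 16 hpf and was not called. The part that this floor had in the split was not tested. Held or rising genes included hoxc3a, at 155 ± 13.3 TPM at 12 hpf and 158 ± 13.1 TPM at 16 hpf, and fabp2, at 851 ± 191 and 1867 ± 320.2 TPM. The hatching enzyme gene he1.1, barely on at 10 hpf, reached 674 ± 65.5 TPM at 16 hpf (SD, n = 4). Others were transient: ccndx was at 20.7 ± 2.25 TPM at 10 hpf and back to 4.34 ± 0.76 TPM at 12 hpf. Likewise klf2a went from 55.7 ± 4.81 to 5.56 ± 0.26 TPM by 16 hpf. The rise of hoxb1b was lost only in part, from 145 ± 12.3 TPM at 10 hpf to 71.1 ± 9.89 TPM at 16 hpf. The later level of hoxb1b was still above its level before the rise. Among the falls, pou5f3 ended at 4.08 ± 0.56 TPM and sox32 at 0.13 ± 0.064 TPM at 16 hpf.

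**Figure D5:**
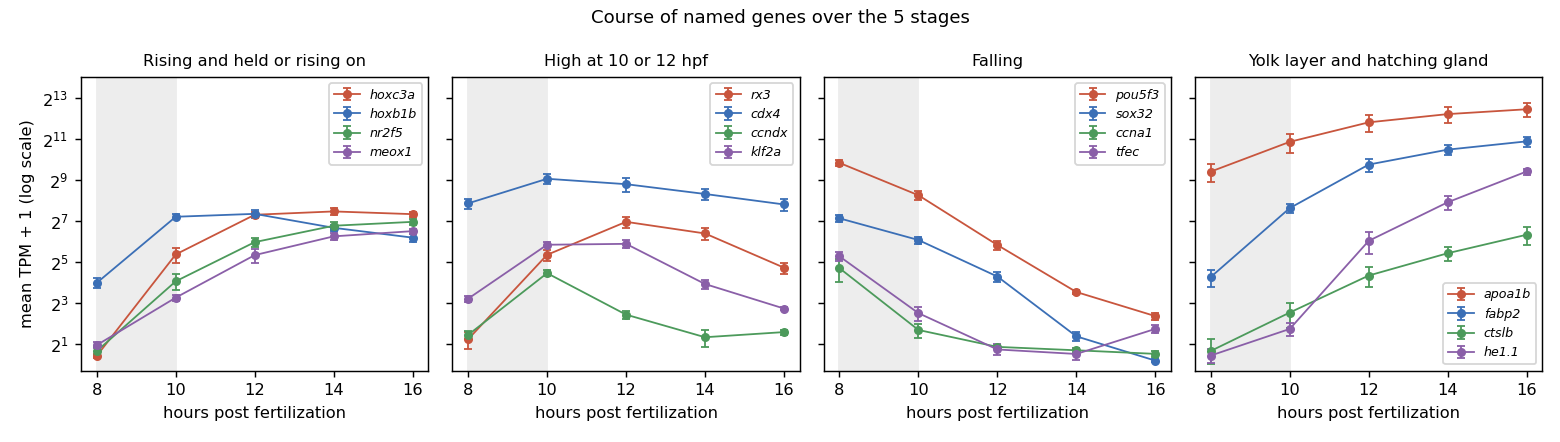
Mean TPM + 1 (log scale) of 16 named genes at 8, 10, 12, 14 and 16 hpf, 4 libraries a stage (2 MPNP and 2 PNP), with SD bars cut at 0 TPM and the step from 8 to 10 hpf shaded. hoxc3a and nr2f5 rise beyond the step, ccndx and klf2a are back near or below their level of 8 hpf by 16 hpf, pou5f3 and sox32 go on falling, and ctslb and he1.1 rise mainly after 10 hpf. hoxb1b, drawn in the first panel, is lower at 16 hpf than at 10 hpf but above its level of 8 hpf.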

How the data were processed

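Whole-embryo RNA was poly(A)-selected and read as pairs of 150 bases, per the labels' protocols. The authors deposited 1 table of TPM values for 32057 Ensembl gene IDs. Per the submitters' processing notes the build was GRCz11 and the tools included HTSeq 0.12.3, STAR 2.7.3a, DESeq2 1.42.1, R 4.3.3 and RSEM 1.3.3, with no word on the one behind the TPM. Depth cannot be read from TPM, so counting intervals are left out. The table held 4 unnamed columns with no values, which were not used. Symbols came from a gene name table that matched 28988 IDs and 13201 of the genes tested. No genome or sequence table of that build was used, so no coordinates or sequences are printed.

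The 8 libraries of 8 and 10 hpf were fitted with limma 3.58.1 in R 4.3.3 on log2(TPM + 1), a pseudocount of 1, with stage, pool type and replicate number as terms (4 residual degrees of freedom) and an intensity trend. Genes with a mean of at least 1 TPM over the 8 libraries were tested (13651), 2-sided, with Benjamini-Hochberg adjustment over all of them and a threshold of 0.05. The fit was also run on data simulated from its own model with known steps. That run cannot test the pairing or the noise that the model assumes. The replicate number was a term because the comparison was defined with it. Across genes, the deviations of same-numbered libraries from their group means correlated at r = 0.479 to 0.598 in all 6 pairs of groups. What a number stands for is not given in the labels. The step from 12 to 16 hpf was fitted in the same way in 8 other libraries.

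The gene lists held 1941 entries, of which 1435 matched a symbol exactly, 379 after a paralogue letter was dropped, 38 by a synonym and 89 not at all. The members and lists were chosen with earlier results of these data known. A gene could stand on several lists, so their counts are not separate tallies. Named genes were the 12 largest rises and 12 largest falls with a mean of at least 5 TPM at the higher stage and no overlap, the key members of each list, up to 4 called members per list and direction by smallest p, and the 8 most abundant genes switched on or cleared. Some genes that met this rule are not reported here. Symbols shared by several IDs are printed with the ID, and reads of near-identical paralogues could have been divided between them in the authors' counting. Alternatives were pseudocounts of 0.1 and 0.5, no filter and a mean of 5 TPM, median-ratio and quantile rescaling, no replicate term, no trend, a fit over all 20 libraries, each pool and number alone, and each library left out in turn.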

Additional observations from a re-analysis of the deposited data

How the results depend on the processing

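The number of genes called was 7251. It was 4701 with no replicate block, 4658 in MPNP libraries alone, 4460 in PNP libraries alone and 4822 in libraries numbered 2 alone. All 4701 genes called without the block were among the 7251. The number that reached 2-fold, 1067, became 1678 with a pseudocount of 0.1 and 631 among genes with a mean of at least 5 TPM. Genes switched on, 32, were 10 with thresholds of 0.5 and 5 TPM and 9 with 1 and 10 TPM, and genes cleared, 8, were 1 under either. The cause of these shifts was not tested, except that stricter thresholds and fewer libraries leave fewer genes or samples by construction. With 1 library left out, 6210 to 6560 genes were called, 1042 to 1114 of them at 2-fold, 29 to 40 genes were switched on and 7 to 11 cleared, and the pool interaction gave 0 to 8 genes (8 without PNP 1 of 10 hpf) and the number interaction 0 to 4 (4 without MPNP 2 of 8 hpf). No named gene that was called changed direction under any alternative run. The excess of risers over fallers, 3921 to 3330, turned over with median-ratio rescaling (3605 to 3772), in MPNP libraries alone (2252 to 2406) and in libraries numbered 1 alone (2267 to 2697), and at 2-fold, 601 to 466, with quantile normalization (527 to 551). Of 482 named genes, 405 kept their side of the threshold with no replicate block and 77 lost it, 467 kept it with median-ratio rescaling and 460 with quantile normalization. The median over all genes moved by at most 0.049 under any setting, so no change was restated relative to it. That of the cytosolic ribosomal protein genes moved more, from 0.40 to 0.26 with quantile normalization. Depth is unknown, so genes near 1 TPM cannot be placed on a counting scale. Whether age differed between the pools was not tested, and no wild-type embryos were compared.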
